A study of Rattus norvegicus with 18 samples.

Results

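HIF and hypoxia target genes were followed across 18 RNA-seq libraries of rat fibroblasts that lack their own myc gene. The list held 10 symbols: the HIF α subunits Hif1a and Epas1, the prolyl hydroxylases Egln1 and Egln3, and the hypoxia target genes Ndrg1, Ankrd37, Adm, Vegfa, Bnip3 and Pdk1. A gene was taken where its symbol stood in the table of 13188 genes, which gave 9 genes, and Egln1 was not analysed here. The rule itself uses no measured value.

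All libraries came from HO15.19, a myc-/- line derived from Rat1 fibroblasts, grown in medium with 10% serum, and no group was labelled as hypoxic. The paper's methods give a lower share of serum for Rat1 fibroblasts. Human MYC was put back by stable viral infection from an exogenous promoter, and 40 nM siRNA was given for 48 h where cells were transfected. There were 6 groups of 3 libraries. Without MYC these were myc-/-, which had no siRNA, and myc-/- siCtrl, which had a non-targeting one. With human MYC they were myc-/- + MYC, which had no siRNA, myc-/- + MYC siCtrl, and a group each with siAHR-2 or siAHR-5, different siRNAs against the aryl hydrocarbon receptor gene Ahr. All of them are descendants of 1 knockout line, and nothing in the labels says whether the 3 libraries of a group came from separate experiments, so the p-values measure the spread between these libraries, which may be technical.

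HIF is a transcription factor made of an oxygen-regulated α subunit, HIF1A or EPAS1, and the constant partner ARNT. With oxygen present, EGLN prolyl hydroxylases mark the α subunit for destruction by the VHL ubiquitin ligase, and at low oxygen the dimer activates genes for glucose use, blood vessel growth and cell survival. This control acts largely on the protein, which was not measured here. ARNT is also the partner of AHR, and MYC with its own partner MAX binds E-boxes of the letters CACGTG, which contain the HIF core ACGTG.

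The libraries stood on 2 scales, and the first principal component (74.7% of the variance) separated 6 libraries, those of myc-/- + MYC and myc-/- siCtrl and here called the smaller set, from the other 12, called the larger set. Levels were compared within a set only. In each set the siRNA label changed together with MYC: by the labels the myc-/- cells were the transfected ones in the smaller set, and the MYC cells in the larger set. This status rests on the sample labels alone. The scales do not follow it, the table's own name for the myc-/- siCtrl libraries says only that they are controls, and if the labels were wrong both MYC effects and their difference would compare other conditions than those named. A MYC effect and a transfection effect therefore cannot be told apart within a set. Values are the deposited log2 values, with unknown depth, and a log2FC is the difference of 2 group means on that scale. The cutoffs were a 1.5-fold difference on this scale and a limma adjusted p of at most 0.01 (Benjamini-Hochberg, over all 13188 genes), and only genes past both are said to have passed, risen or fallen. Values listed for rat Myc in these knockout cells were lower with human MYC in both sets, at 8.01 to 8.08 against 9.16 to 9.47 in the smaller set and at 8.16 to 8.27 against 10.82 to 10.94 in the larger set. These values do not check the human transgene, which was not analysed here.

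The first question was which of these genes differed with MYC. In the smaller set, MYC cells had higher Ndrg1 and Ankrd37 and lower Adm, Bnip3, Vegfa and Hif1a. In the larger set, Ndrg1 and Ankrd37 were again higher and Adm again lower, Pdk1 was also higher, and Hif1a, Vegfa and Bnip3 did not pass. Thus 6 of 9 genes passed in the smaller set, where 26.8% of all genes passed, and 4 of 9 in the larger set, where 25.5% did. They were 2 higher and 4 lower in the smaller set, beside 12.5% higher and 14.3% lower of all genes, and 3 higher and 1 lower in the larger set, beside 10.8% and 14.7%. At an adjusted p of at most 0.05 with no fold cutoff, 8 of 9 and 7 of 9 were called, beside 76.2% and 64.7% of all genes. The median log2FC of the 9 genes was -0.03 in the smaller set and 0.04 in the larger set, against -0.00 for all genes in each. After quantile normalization 4 genes passed in the smaller set, 2 higher and 2 lower.

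**Figure D1:**
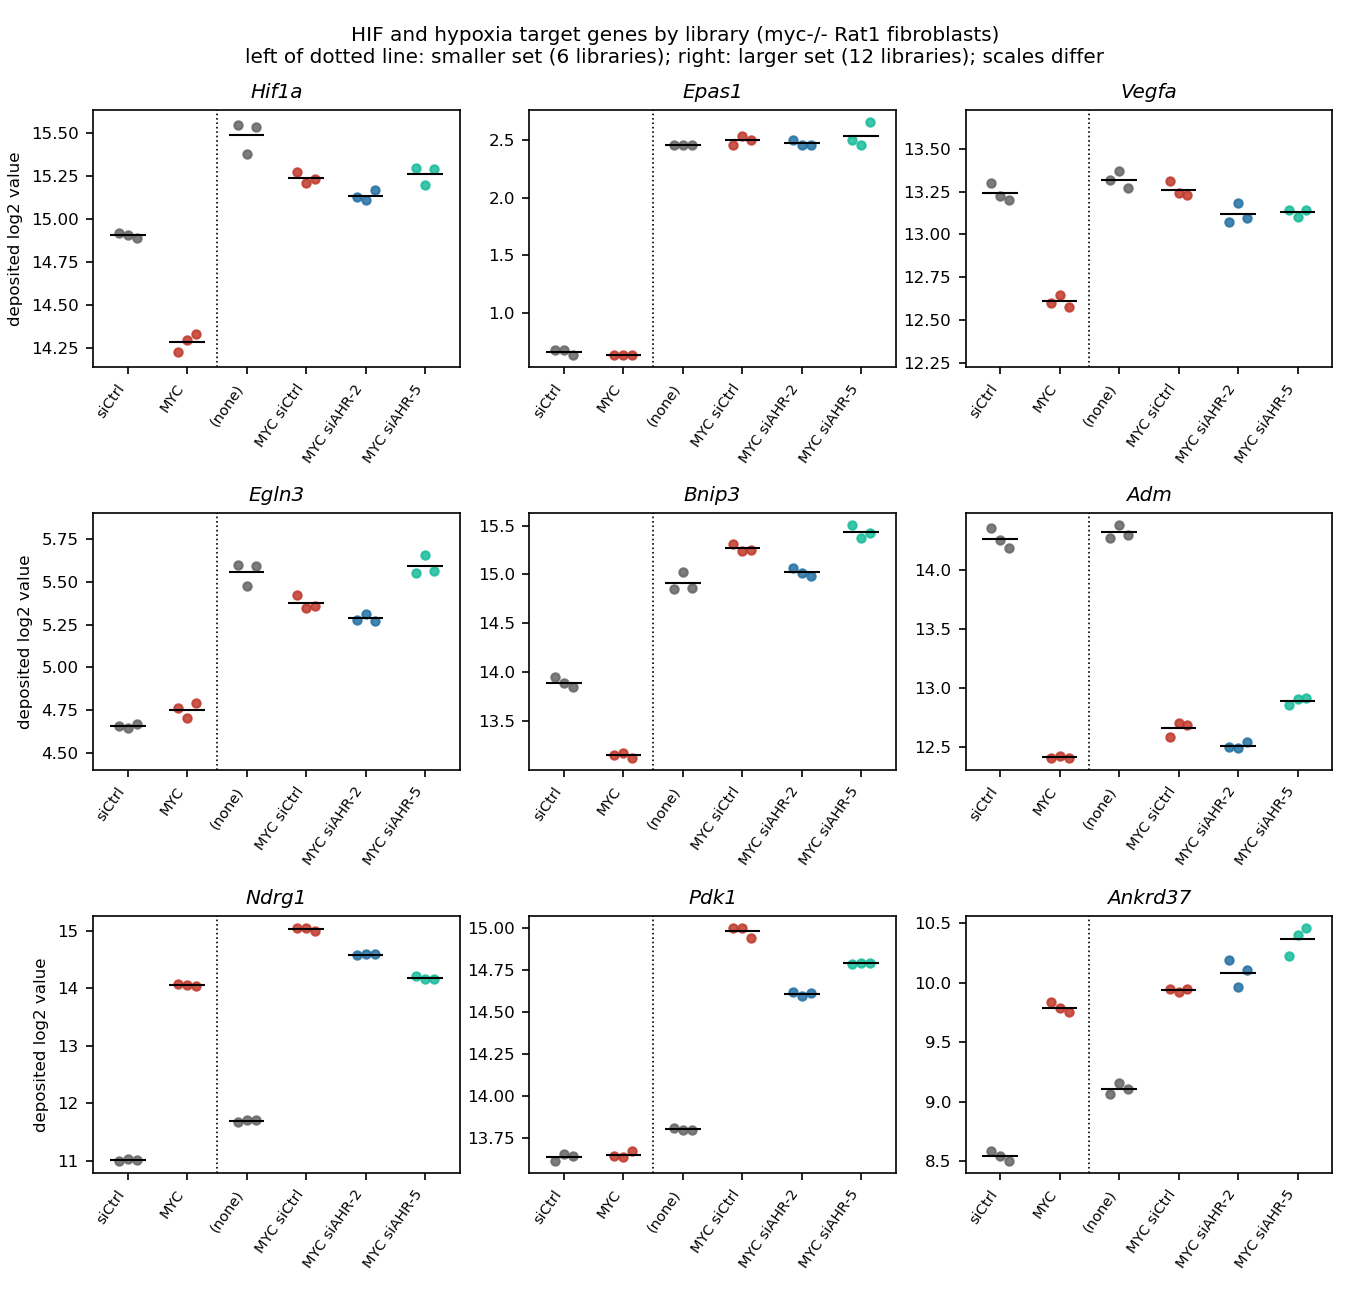
Deposited log2 value of each of the 9 genes in each of the 18 libraries, 1 panel a gene, with 1 point a library, a bar at the group mean and the smaller set left of the dotted line. The vertical axes differ between panels and do not start at 0. Ndrg1 sat near 11 without MYC in the smaller set and above 14 with it, and Adm ran the other way.

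The panels by library show how small the spread within a group was beside the largest of these differences. For Ndrg1 the SD of the 3 libraries was at most 0.0364 in any of the 6 groups, beside differences with MYC of more than 3 log2 units in each set.

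Of the targets, Ndrg1, a stress-responsive gene that hypoxia and iron depletion induce and that MYC is known for repressing in other cells, had the largest rise of the list. Its 3 libraries ran from 10.99 to 11.03 in myc-/- siCtrl and at 14.07, 14.05 and 14.04 in myc-/- + MYC. The larger set had them at 11.67, 11.71 and 11.71 in myc-/- and at 15.06, 15.06 and 14.99 in myc-/- + MYC siCtrl. Every MYC library was above every library without MYC in its set. The log2FC was 3.05 (SE 0.0311, limma adjusted p = 5.25e-14), an 8.27-fold difference, in the smaller set, and 3.34 (SE 0.0297, limma adjusted p = 6.82e-08), a 10.1-fold difference, in the larger set.

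Ankrd37, a small ankyrin-repeat protein gene induced by HIF, also rose in both sets. It was at 8.59, 8.54 and 8.50 in myc-/- siCtrl and at 9.84, 9.79 and 9.75 in myc-/- + MYC, with a log2FC of 1.25 (SE 0.0559, limma adjusted p = 2.88e-09). It was at 9.06, 9.16 and 9.11 in myc-/- and at 9.95, 9.92 and 9.95 in myc-/- + MYC siCtrl, with a log2FC of 0.83 (SE 0.0477, limma adjusted p = 2.37e-05). The groups did not overlap in either set, and the folds were 2.38 and 1.78.

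Adm, which encodes the vasodilator peptide adrenomedullin, fell in both sets. It was at 14.35, 14.25 and 14.18 in myc-/- siCtrl and at 12.41, 12.42 and 12.40 in myc-/- + MYC, a log2FC of -1.85 (SE 0.0408, limma adjusted p = 1.04e-11). It was at 14.27, 14.38 and 14.30 in myc-/- and at 12.58, 12.70 and 12.68 in myc-/- + MYC siCtrl, a log2FC of -1.66 (SE 0.0473, limma adjusted p = 1.67e-06). Adm was 3.61-fold lower with MYC in one set and 3.16-fold lower in the other, with no overlap of libraries.

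Vegfa, the main growth factor for blood vessels, fell in the smaller set only by these cutoffs. It was at 13.30, 13.23 and 13.20 in myc-/- siCtrl and at 12.60, 12.65 and 12.58 in myc-/- + MYC, a log2FC of -0.63 (SE 0.0357, limma adjusted p = 2.02e-08), which was -0.54 and under the fold cutoff after quantile normalization. Its groups overlapped in the larger set, at 13.32, 13.37 and 13.27 without MYC and 13.31, 13.24 and 13.23 with it, and the log2FC was -0.06 (95% interval -0.15 to 0.04, limma adjusted p = 0.233). The direct test of this difference between the sets is given below with those of the other genes.

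Bnip3, a mitochondrial protein gene for mitophagy and cell death, was ordered oppositely in the sets. It was at 13.95, 13.89 and 13.84 in myc-/- siCtrl and at 13.16, 13.17 and 13.12 in myc-/- + MYC, and fell with a log2FC of -0.75 (SE 0.0339, limma adjusted p = 3.28e-09). It was at 14.86, 15.03 and 14.86 in myc-/- and at 15.31, 15.24 and 15.25 in myc-/- + MYC siCtrl, with a log2FC of 0.35 (SE 0.0536, limma adjusted p = 0.00163) that was under the fold cutoff. Neither pair of groups overlapped.

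Pdk1, a kinase that inhibits pyruvate dehydrogenase, did not pass in one set and rose in the other. It was at 13.61, 13.66 and 13.64 in myc-/- siCtrl and at 13.65, 13.64 and 13.67 in myc-/- + MYC, groups that overlapped, with a log2FC of 0.01 (95% interval -0.05 to 0.08, limma adjusted p = 0.670). It was at 13.81, 13.80 and 13.80 in myc-/- and at 15.00, 15.00 and 14.94 in myc-/- + MYC siCtrl, a 2.26-fold rise with a log2FC of 1.18 (SE 0.0270, limma adjusted p = 7.71e-07).

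Among the regulators, Hif1a fell in the smaller set, from 14.92, 14.91 and 14.89 in myc-/- siCtrl to 14.22, 14.29 and 14.33 in myc-/- + MYC. That log2FC was -0.62 (SE 0.0323, limma adjusted p = 9.83e-09), and -0.40 and under the fold cutoff after quantile normalization. In the larger set it was at 15.55, 15.38 and 15.54 in myc-/- and at 15.27, 15.21 and 15.23 in myc-/- + MYC siCtrl, with a log2FC of -0.25 (SE 0.0519, limma adjusted p = 0.00639) that did not reach the fold cutoff. The MYC libraries were the lower ones in both sets, without overlap.

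Egln3, the hydroxylase that is itself a HIF target, differed by 0.10 in the smaller set (limma adjusted p = 0.0362) and by -0.18 in the larger set (limma adjusted p = 0.0122), and passed in neither. Its libraries ran from 4.64 to 4.79 in the smaller set and from 5.35 to 5.60 in those 6 libraries of the larger set. Epas1, the α subunit best known from blood vessel cells, was near-constant, at 0.63 to 0.68 in the smaller set and at 2.46 to 2.53 in myc-/- and myc-/- + MYC siCtrl. Values this close to a constant do not show whether the transcript was present.

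Groups with and without MYC did not overlap for 8 of 9 genes in the smaller set, where 78.8% of all genes did not overlap, and for 7 of 9 in the larger set, where 70.5% did not. Pdk1 was the gene that overlapped in the smaller set. Vegfa and Epas1 were the genes that overlapped in the larger set.

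**Figure D2:**
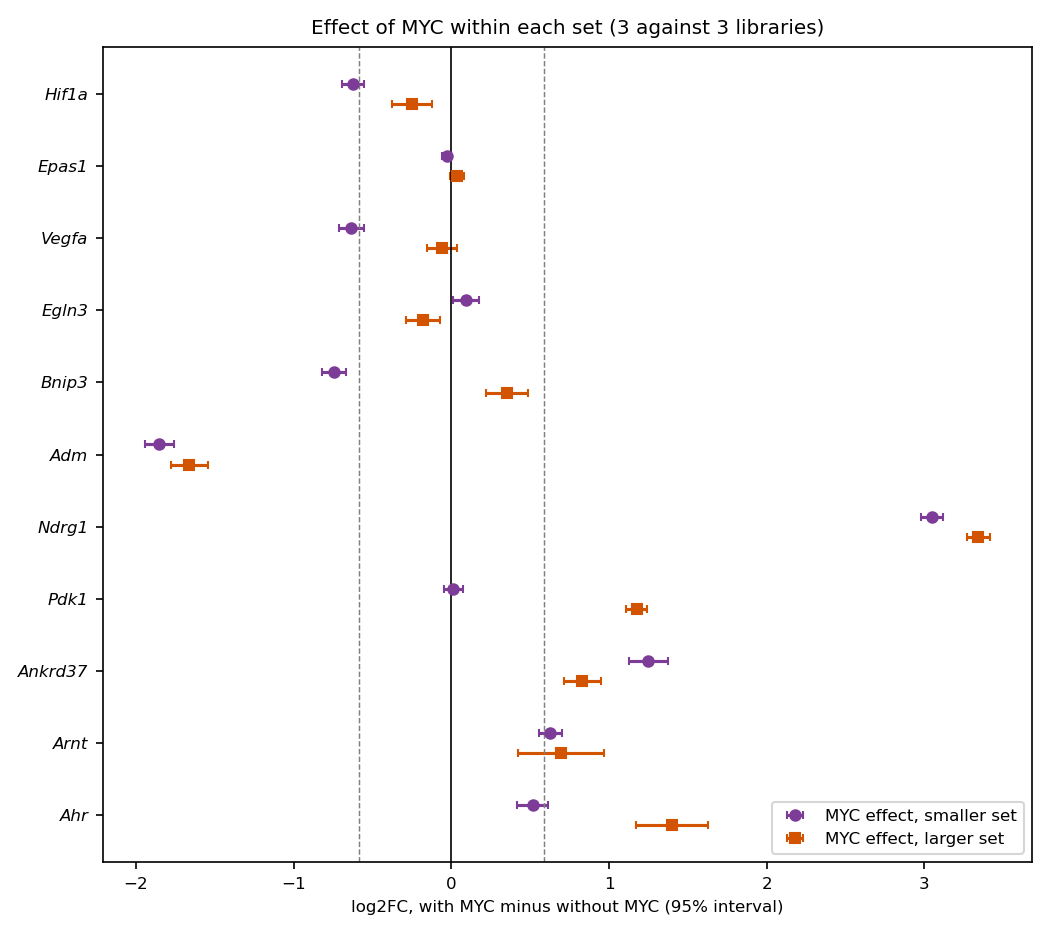
Log2FC of each of the 9 genes and of Arnt and Ahr with MYC in the smaller set and in the larger set, with 95% intervals from limma and dashed lines at the fold cutoff. Ndrg1, Ankrd37, Adm and Arnt lie beyond the cutoff on the same side in both sets. Bnip3, Pdk1 and Ahr are those whose difference between the sets passed both cutoffs.

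The plot of MYC effects sets both estimates of each gene side by side. Their difference (larger set minus smaller set) was tested as an interaction over 12 libraries in 4 groups, with the reservation that the log2 scales of the sets were made separately and that the siRNA label moves oppositely in them. Of the 9 genes 2 passed, both higher, beside 16.5% of all genes in either direction and 6.79% higher. At an adjusted p of at most 0.05 with no fold cutoff all 9 were called, beside 54.9% of all genes. Bnip3 differed by 1.10 (SE 0.0653, limma adjusted p = 2.65e-09) and Pdk1 by 1.16 (SE 0.0455, limma adjusted p = 2.56e-11). Vegfa differed by 0.57 (SE 0.0582, limma adjusted p = 9.02e-07), just under the fold cutoff, and passed after median centring, at 0.66. Hif1a differed by 0.37 (limma adjusted p = 1.56e-04), Ndrg1 by 0.29 (1.29e-04) and Ankrd37 by -0.42 (3.35e-04). Egln3 differed by -0.28 (limma adjusted p = 0.00138), Adm by 0.19 (0.0271) and Epas1 by 0.07 (0.0292).

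The promoters of 4 of these genes hold short motif matches and are printed to show where the letters lie. Those of Hif1a, Bnip3 and Ankrd37 hold the HIF core and the E-box that MYC and MAX can bind, and that of Pdk1 holds only the variant GCGTG. They are the 250 bases before the start site from RefSeq (GRCr8 assembly), printed on the gene's strand, with capitals at the HIF core (ACGTG), at its variant with a first G (GCGTG), at the E-box (CACGTG) and at the reverse complement of each. CACGTG reads the same on both strands and contains ACGTG on each, and a match is a description, not a site.

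Hif1a: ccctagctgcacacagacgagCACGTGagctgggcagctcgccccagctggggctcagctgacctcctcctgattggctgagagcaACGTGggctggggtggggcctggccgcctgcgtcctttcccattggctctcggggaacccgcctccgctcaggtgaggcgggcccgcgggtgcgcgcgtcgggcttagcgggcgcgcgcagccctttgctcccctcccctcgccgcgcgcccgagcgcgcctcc

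Bnip3: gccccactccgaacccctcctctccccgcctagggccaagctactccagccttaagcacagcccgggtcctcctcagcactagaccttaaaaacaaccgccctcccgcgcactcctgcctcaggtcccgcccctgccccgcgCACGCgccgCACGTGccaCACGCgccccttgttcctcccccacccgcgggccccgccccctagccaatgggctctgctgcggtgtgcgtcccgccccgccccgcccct

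Pdk1: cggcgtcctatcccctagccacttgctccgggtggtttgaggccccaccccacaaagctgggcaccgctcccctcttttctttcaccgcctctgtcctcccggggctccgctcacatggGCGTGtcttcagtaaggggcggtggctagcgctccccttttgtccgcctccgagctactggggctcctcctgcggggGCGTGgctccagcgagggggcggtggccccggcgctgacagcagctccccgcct

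Ankrd37: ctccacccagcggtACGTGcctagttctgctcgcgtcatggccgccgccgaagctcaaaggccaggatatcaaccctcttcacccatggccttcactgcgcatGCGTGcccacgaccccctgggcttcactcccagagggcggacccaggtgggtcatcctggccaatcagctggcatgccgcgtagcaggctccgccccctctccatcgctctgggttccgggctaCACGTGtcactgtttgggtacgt

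These windows are at chr6:98359648-98359897 (plus strand) for Hif1a, chr1:203154963-203155212 (minus strand) for Bnip3, chr3:77113264-77113513 (plus strand) for Pdk1 and chr16:53001257-53001506 (plus strand) for Ankrd37. A window was found for 8 of the 9 genes (Vegfa had 2 start sites), and none was found for Ndrg1. CACGTG stood in 3 genes, at -229 to -224 from the start in Hif1a, -99 to -94 in Bnip3 and -23 to -18 in Ankrd37, and in 5.59% of all 33469 windows. ACGTG or GCGTG stood in 4 genes and in 36.7% of all windows. TNGCGTG, the AHR and ARNT element that contains GCGTG, was in none of the windows of these genes and in 4.09% of all. In Pdk1 the matches were GCGTG at -131 to -127 and at -54 to -50. Of the 4 genes with a match, Ankrd37 rose with MYC in both sets, Pdk1 rose in the larger set, and Hif1a and Bnip3 fell in the smaller set. In Adm, Egln3, Epas1 and both Vegfa windows the letters did not occur.

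Arnt, the shared partner of HIF1A and AHR, was at 12.47 to 12.51 in myc-/- siCtrl and at 13.08 to 13.16 in myc-/- + MYC, a rise of 0.63 on the log2 scale (SE 0.0331, limma adjusted p = 1.13e-08). In the larger set it was at 13.19, 12.80 and 13.17 in myc-/- and at 13.81, 13.72 and 13.71 in myc-/- + MYC siCtrl, a log2FC of 0.70 (SE 0.110, limma adjusted p = 0.00196). The low library, myc-/- replicate 2, moved this value: without it the log2FC was 0.57 and under the fold cutoff. The call was also lost without each of the 3 myc-/- + MYC siCtrl libraries, at limma adjusted p of 0.0102 to 0.0116. Arnt2, a second ARNT-type partner, fell in both sets, with a log2FC of -3.57 (limma adjusted p = 1.32e-12) in the smaller set, where it went from 11.94 ± 0.0934 to 8.37 ± 0.0599 (SD, n = 3). The log2FC was -3.58 (limma adjusted p = 1.12e-06) in the other set, where it went from 10.92 ± 0.150 to 7.33 ± 0.0739 (SD, n = 3). Arnt2 was thus 11.89-fold and 11.98-fold lower in MYC cells, beside an Arnt that was 1.55-fold and 1.62-fold higher.

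Of 13 genes of the HIF machinery, 1 rose (Arnt) and 1 fell (Arnt2) in the smaller set, and 2 rose and 3 fell in the larger set, so that 15.4% and 38.5% of the list passed beside 26.8% and 25.5% of all genes. Cul2, the scaffold of the VHL ligase, rose in the larger set with a log2FC of 0.59 (limma adjusted p = 1.20e-05), while Vhl itself fell with -0.59 (2.45e-04) and the hydroxylase Egln2 with -0.69 (2.46e-04). Vhl differed by 0.04 in the smaller set (limma adjusted p = 0.318) and Egln2 by -0.36 (2.19e-06). Hif1an, which inhibits HIF, differed by -0.47 in the smaller set (limma adjusted p = 2.85e-06) and by -0.20 in the larger set (0.0448), and Hif3a by 0.21 (0.0134) and 0.02 (0.0995). Without myc-/- + MYC siCtrl replicate 1 Cul2 was at 0.58 and just under the fold cutoff. Without myc-/- replicate 2 Vhl was at -0.55 and without myc-/- replicate 1 or myc-/- + MYC siCtrl replicate 2 at -0.58 and -0.56, each under the fold cutoff.

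Ahr was at 12.50, 12.44 and 12.39 in myc-/- siCtrl and at 12.88, 12.97 and 13.03 in myc-/- + MYC, a log2FC of 0.52 (SE 0.0447, limma adjusted p = 8.33e-07) that did not reach the fold cutoff. In the larger set it rose, from 12.01, 11.67 and 11.95 in myc-/- to 13.34, 13.26 and 13.22 in myc-/- + MYC siCtrl, a log2FC of 1.40 (SE 0.0932, limma adjusted p = 4.42e-05). Among the 7 ARNT partners measured, 1 rose and 1 fell in the smaller set, and 3 rose and 3 fell in the larger set, which is 28.6% and 85.7% of them, beside 26.8% and 25.5% of all genes. Ahrr, the repressor that AHR itself induces, rose in both sets, with a log2FC of 0.65 and 0.90.

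Of 38 further genes listed as hypoxia targets, 7 rose and 15 fell with MYC in the smaller set, with a median log2FC of -0.47. The counts in the larger set were again 7 and 15, with a median of -0.37. In each set 57.9% of the list passed, beside 26.8% and 25.5% of all genes. There were 11 genes that fell in both sets, 4 that rose in both and 1 that moved oppositely, which is 28.9%, 10.5% and 2.63% of the 38, beside 8.91%, 6.87% and 0.341% of all 13188 genes. The 38 include paralogues of the members, namely Pdk2, Pdk3, Pdk4, Ndrg2, Ndrg3, Ndrg4, Vegfb and Vegfc. Whether each of these is a hypoxia target was not tested. In the smaller set Pdk2, Pdk4, Ndrg2 and Ndrg4 are among the rises, and Ndrg3 and Vegfb among the falls. Ndrg3 is the gene that moved oppositely. Falls in both sets, as log2FC in the smaller set and then in the larger set, were seen in Cxcl12, a chemokine (-3.32 and -4.59), Stc2, a secreted glycoprotein (-2.27 and -3.61), Angptl4 (-1.97 and -1.72), the collagen prolyl hydroxylase P4ha2 (-1.42 and -1.98), Vldlr (-1.15 and -1.51) and Vegfb (-1.11 and -1.72). Tfrc, the transferrin receptor, rose by 2.05 and 1.91, and Ddit4, an inhibitor of mTORC1, by 1.03 and 2.34. Flt1, a VEGF receptor gene, fell by 3.04 in the larger set and differed by 0.03 in the smaller set.

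Of 19 glucose transport and glycolysis genes, 3 rose and 3 fell in the smaller set (31.6% passed, beside 26.8% of all genes), and 6 rose and 1 fell in the larger set (36.8%, beside 25.5%). Their median log2FC was -0.16 and 0.41, against -0.00 for all genes in both. In the smaller set Slc2a3 (0.72), Pfkp (0.88) and Aldoc (0.96) rose and Hk2 (-1.17), Pfkfb3 (-0.91) and Aldoa (-0.96) fell. In the larger set Slc2a1, the main glucose transporter, rose by 1.06, Pfkp by 1.32, Gys1 by 1.04, Eno1 by 0.78, Pgk1 by 0.77 and Ldha by 0.77, while Pfkfb3 fell by 0.90. The interaction test passed for 11 of these 19 with a higher MYC effect in the larger set and for 1, Aldoc, with a lower one, beside 6.79% higher and 9.67% lower of all genes (8.70% and 7.86% after median centring). The median difference was 0.61, against -0.02 for all genes.

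Markers of the labelled cell type moved with MYC too. Of 11 fibroblast markers 1 rose and 5 fell in the smaller set (54.5% passed, beside 26.8% of all genes), and 7 fell in the larger set (63.6%, beside 25.5%). Col1a1, a chain of collagen I, fell in both sets, with a log2FC of -1.73 and -5.95, as did Pdgfrb (-1.72 and -3.08) and Thy1 (-1.15 and -2.20). Col3a1, a chain of collagen III, was the marker that rose in the smaller set (1.30), and it had a log2FC of -0.08 in the larger set (limma adjusted p = 0.0891). The log2 of their summed level ran from 20.82 to 20.84 in myc-/- siCtrl against 19.90 to 19.99 in myc-/- + MYC, and from 21.95 to 22.18 in myc-/- against 20.23 to 20.25 in myc-/- + MYC siCtrl. Vim stayed within 18.32 to 18.57 in the smaller set and 18.95 to 19.70 in the larger set, whereas Col1a2 was at only 3.64 to 4.13 in all libraries. Markers of other cell types moved as well. Of 6 endothelial markers Tek rose (1.61) and Vwf fell (-1.89) in the smaller set and Vwf fell (-3.06) in the larger set, and the log2 of the summed level ran from 10.03 to 10.08 without MYC against 9.13 to 9.27 with it, and from 10.63 to 10.82 against 9.79 to 9.87. Of 5 epithelial markers Krt8 rose in both sets (1.70 and 1.17) and was the only one to pass, with summed levels of 8.24 to 8.30 against 8.67 to 8.84, and of 7.82 to 7.97 against 8.79 to 9.13. Of 5 haematopoietic markers Cd74 fell in the smaller set (-1.21) and none passed in the larger set, with summed levels of 9.88 to 10.32 against 9.17 to 9.45, and of 7.99 to 8.14 against 7.90 to 8.14. Epcam and Ptprc were at 2.42 or below and at 4.65 or below in all libraries. Not all markers of other cell types were this low. In the smaller set the means without and with MYC were 6.54 and 6.74 for Pecam1, 7.71 and 7.44 for Krt19, and 7.11 and 7.46 for Cd68. The part of cell state or of other cells in the results was not tested, and in bulk RNA a lower share of cells and less RNA per cell cannot be told apart.

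The second question was whether silencing AHR, which shares the ARNT partner with HIF1A, shifted these genes in cells with MYC. The siRNAs lowered Ahr itself, from 13.34, 13.26 and 13.22 in myc-/- + MYC siCtrl to 11.97, 11.97 and 12.03 with siAHR-2, a log2FC of -1.29 (SE 0.0364, limma adjusted p = 2.37e-04), and to 11.95, 11.76 and 11.94 with siAHR-5, a log2FC of -1.39 (SE 0.0612, limma adjusted p = 2.16e-04). Ahrr, the AHR target, fell with both as well, with a log2FC of -0.80 (limma adjusted p = 4.08e-04) and -1.19 (1.34e-04). With the replicate number as a block, neither Ahr nor Ahrr passed with siAHR-2, where calls over all genes went to 0. Both siRNAs were compared with the same 3 siCtrl libraries, which are also those of the MYC effect in the larger set.

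Silencing of AHR left most of the hypoxia genes within the fold cutoff. With siAHR-2, 0 of 9 genes passed in limma, where 0.470% of all genes did, while an unadjusted p under 0.05 was found for 7, beside 40.4% of all genes. With siAHR-5, Ndrg1 fell and was the 1 gene of 9 that passed, where 2.32% of all genes did. Over all genes 1.47% were higher and 0.849% lower, against 1.06% and 1.25% after median centring. At an adjusted p of at most 0.05 with no fold cutoff, 6 of 9 were called with siAHR-2 and 7 of 9 with siAHR-5, beside 29.3% and 39.2% of all genes. The median log2FC of the 9 genes was -0.14 with siAHR-2 and 0.04 with siAHR-5, against 0.00 and 0.01 for all genes. Groups did not overlap for 8 of 9 genes with siAHR-2, where 43.3% of all genes did not overlap, and for 7 of 9 with siAHR-5, where 50.5% did not.

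Ndrg1 was lower with both siRNAs. It went from 15.06, 15.06 and 14.99 with siCtrl to 14.58, 14.60 and 14.59 with siAHR-2, a log2FC of -0.45 (SE 0.0217, limma adjusted p = 4.28e-04) that was under the fold cutoff. With siAHR-5 it was at 14.22, 14.16 and 14.17, a 1.81-fold lower level with a log2FC of -0.85 (SE 0.0271, limma adjusted p = 1.13e-04). All 6 libraries with an siRNA against Ahr lay below all 3 siCtrl libraries, and above the 11.67 to 11.71 of myc-/- cells without MYC.

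Pdk1 was at 14.62, 14.59 and 14.61 with siAHR-2 and at 14.78, 14.79 and 14.79 with siAHR-5, against 15.00, 15.00 and 14.94 with siCtrl. Its log2FC was -0.37 (SE 0.0213, limma adjusted p = 5.59e-04) and -0.19 (limma adjusted p = 0.00193), without overlap and under the fold cutoff. Vegfa had a log2FC of -0.14 with siAHR-2 (limma adjusted p = 0.0413) and of -0.13 with siAHR-5 (0.0151). Hif1a was at 15.13, 15.11 and 15.17 with siAHR-2 and at 15.30, 15.20 and 15.29 with siAHR-5, a log2FC of -0.10 (limma adjusted p = 0.0267) and 0.02 (0.627).

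Bnip3, Adm and Egln3 were ordered differently with the 2 siRNAs. Bnip3 was at 15.07, 15.02 and 14.99 with siAHR-2 and at 15.51, 15.37 and 15.43 with siAHR-5, with log2FC of -0.24 (limma adjusted p = 0.00321) and 0.17 (0.0200) against the siCtrl libraries at 15.24 to 15.31. Adm was at 12.50, 12.49 and 12.54 and at 12.86, 12.90 and 12.92, with log2FC of -0.15 (limma adjusted p = 0.0382) and 0.24 (0.00662). Egln3 was at 5.27 to 5.31 and at 5.55 to 5.66, with log2FC of -0.09 (limma adjusted p = 0.0563) and 0.22 (0.00844). In each of these genes the siAHR-2 libraries lay below the siCtrl libraries and the siAHR-5 libraries above them.

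Ankrd37 was at 10.19, 9.96 and 10.11 with siAHR-2 and at 10.23, 10.41 and 10.46 with siAHR-5, with log2FC of 0.15 (limma adjusted p = 0.146) and 0.42 (0.00553). Both groups lay above the siCtrl libraries at 9.92 to 9.95. Epas1 stayed at 2.46 to 2.66 in these 3 groups, and its log2FC was -0.02 and 0.04. Arnt differed by -0.08 with siAHR-2 (limma adjusted p = 0.114) and by -0.02 with siAHR-5 (0.797).

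**Figure D3:**
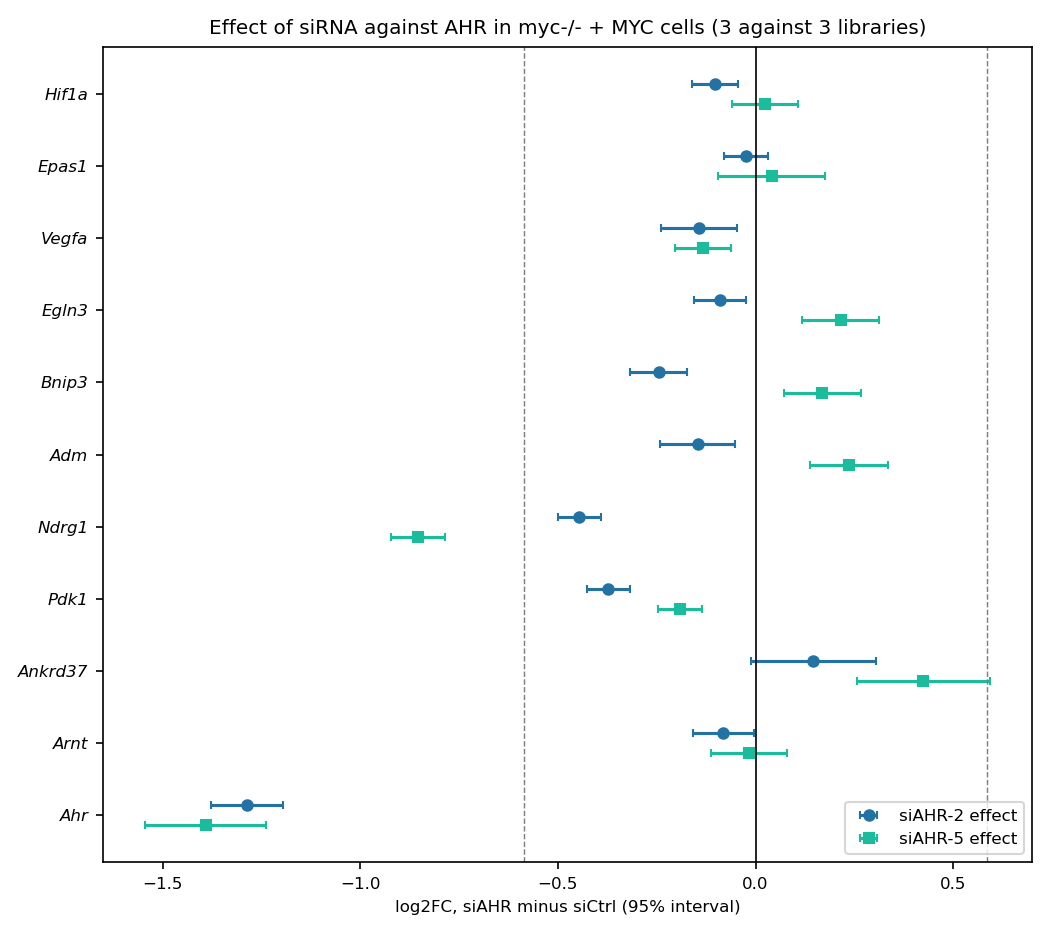
Log2FC of each of the 9 genes and of Arnt and Ahr with siAHR-2 and with siAHR-5 against siCtrl in MYC cells, with 95% intervals from limma and dashed lines at the fold cutoff. Ahr lies beyond the cutoff with both siRNAs and Ndrg1 with siAHR-5, and the estimates of the other genes lie within it.

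The plot of the siRNA effects shows that the intervals of most genes stayed inside the fold cutoff. Comparing the siRNAs directly, siAHR-5 against siAHR-2, which needs no siCtrl library, 0 of 9 genes passed in limma, where 2.18% of all genes did, and the unadjusted p was under 0.05 for 7, beside 46.8% of all genes. At an adjusted p of at most 0.05 alone 6 of 9 were called, beside 39.1% of all genes, and 7 of 9 did not overlap, beside 49.5%. Ndrg1 was lower with siAHR-5, with a log2FC of -0.41 (SE 0.0200, limma adjusted p = 1.34e-04), without overlap. Bnip3 was higher with siAHR-5 by 0.41 (limma adjusted p = 9.79e-04), Adm by 0.38 (2.90e-04), Egln3 by 0.30 (0.00175) and Pdk1 by 0.18 (3.92e-04). The difference was 0.28 for Ankrd37 (limma adjusted p = 0.0516), 0.13 for Hif1a (0.0272), 0.06 for Epas1 (0.408) and 0.01 for Vegfa (0.867).

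In the wider lists, none of the 13 machinery genes and none of the 19 glycolysis genes passed with either siRNA, where 0.470% and 2.32% of all genes did. An unadjusted p under 0.05 in limma was found for 7 and 4 of the machinery genes and for 16 and 15 of the glycolysis genes, beside 40.4% and 47.8% of all genes. The median log2FC of the glycolysis genes was -0.21 with siAHR-2 and -0.15 with siAHR-5. Of the 38 further listed genes, Hmox1, heme oxygenase, rose by 0.66 with siAHR-2 (limma adjusted p = 3.73e-04) and Loxl2, a collagen cross-linking enzyme, fell by 1.24 (3.72e-04). With the replicate number as a block neither of them passed with siAHR-2, where calls over all genes went to 0. With siAHR-5 Hmox1 had a log2FC of 0.57 (limma adjusted p = 3.62e-04), without overlap and just under the fold cutoff, and Loxl2 one of -0.20 (0.0255). Ddit4 rose by 0.66 with siAHR-5 (limma adjusted p = 8.96e-04), beside 0.22 with siAHR-2 (0.0171), which did not pass. Between the siRNAs, Loxl2 was higher with siAHR-5 by 1.05. Ndrg4 was higher by 0.59 and passed with all libraries, but in none of the 6 fits that left out 1 library (0.49 to 0.64). Of 11 fibroblast markers 0 passed with siAHR-2, and Thy1 rose with siAHR-5 (0.75, limma adjusted p = 2.58e-04). That is 9.09% of them with siAHR-5, beside 2.32% of all genes. Pdgfrb (0.55) and Vim (-0.48) were under the fold cutoff with siAHR-5. Between the siRNAs Thy1 (0.67) and Pdgfrb (0.64) passed, 18.2% of the markers beside 2.18% of all genes. No endothelial, epithelial or haematopoietic marker passed in these comparisons. The part of cell state was not tested.

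**Figure D4:**
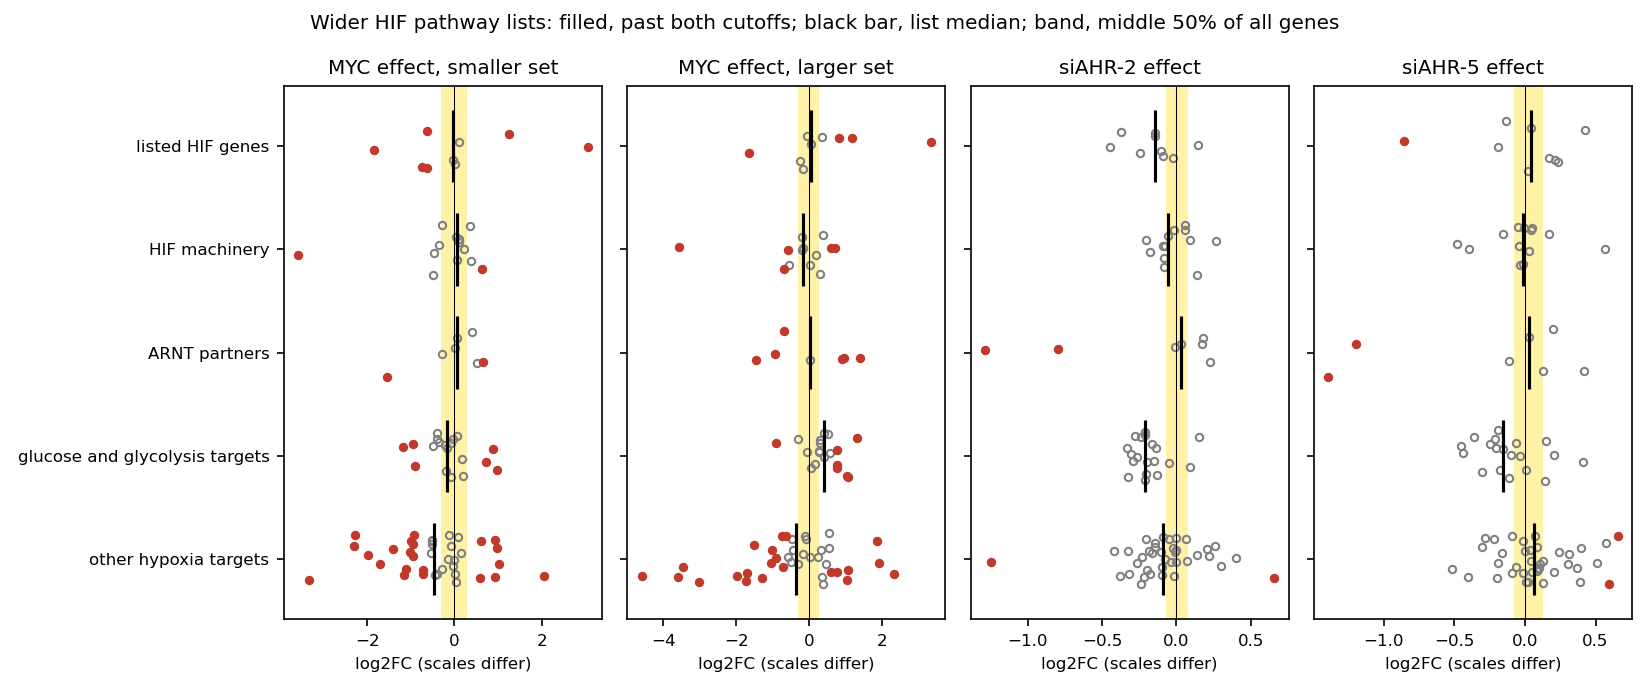
Log2FC of each gene of the 9 listed HIF genes and of the 4 wider pathway lists, in a panel each for MYC in the smaller set, MYC in the larger set, siAHR-2 and siAHR-5, with horizontal scales that differ between panels. Each point is a gene (filled red, past both cutoffs), the black bar is the list's median and the yellow band holds the middle 50% of all genes. The median of the glycolysis genes is at -0.16 and 0.41 in the MYC panels and at -0.21 and -0.15 in the siRNA panels.

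The plot of the pathway lists includes the genes not named here. The HIF machinery and the listed HIF genes had 0 and 1 filled points over both siRNA panels, against 7 and 10 over both MYC panels. Over all genes 0.470% passed with siAHR-2 and 2.32% with siAHR-5, against 26.8% and 25.5% with MYC in the smaller and larger sets. The contrast is thus also that of all genes.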

How the data were processed

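RNA-seq was made from poly-A RNA of 18 libraries in 6 groups of 3, grouped by the sample labels. Before depositing, the authors ran NGS-QC-Toolkit on the reads, used HISAT2 2.1.0 for alignment to rn6, dropped genes under 10 reads in total and normalized by DESeq2. Which counter and gene models served is not given in the sources used here. The authors deposited normalized log2 values for 13188 genes. The table is named as log CPM, but taken off the log scale the libraries sum to 86.3 to 161 times a CPM total, so no counts could be recovered, depth is unknown, and the spread between libraries is the error used. How the transformation acts on fold changes of low genes was not tested. Value columns without a sample numbered 0.

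Because count models could not be used, each contrast was tested by limma 3.58.1 (lmFit, then eBayes with a mean-variance trend; R 4.3.3) within its set, with only the compared groups in a fit. The cutoffs follow the paper's results. Fits were tested on simulated data. Genes named are all 9 members, Arnt, Ahr, Vhl, Hif1an, Egln2 and Hif3a, and up to 12 genes of the wider lists with the largest log2FC in each comparison. Myc, marker genes and the glycolysis genes, Cul2, Ahrr and Ddit4 in the smaller set outside that rule were named after their values were seen, and 1 gene that the rule picks is not reported. The members and lists were chosen with earlier results of these data known. Promoters came from RefSeq, on GRCr8, and carry no coordinates of rn6. Plots used matplotlib 3.10.9 and Python 3.11.15. Alternatives were the adjusted p cutoff of 0.05 alone, all libraries in 1 fit, no trend, quantile normalization, median centring, a minimum mean log2 value of 1, a pseudocount of 1, a replicate block and leaving out each library.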

Additional observations from a re-analysis of the deposited data

Results flagged for a closer look

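Of the 9 genes, 3 were marked because the MYC effect differed between the sets. Bnip3 differed by 1.10 (larger set minus smaller set), with log2FC of 0.35 and -0.75, and every MYC library lay above its set's other group in one set and below it in the other. Pdk1 differed by 1.16, with log2FC of 1.18 and 0.01. Egln3 differed by -0.28 (limma adjusted p = 0.00138, under the fold cutoff), with log2FC of -0.18 and 0.10 and no overlap in either set.

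The same difference passed in limma for several pathway genes. It was 0.88 for Ahr and -0.63 for Vhl, whose groups were separate and opposite in direction in the sets (-0.59 in the larger set and 0.04 in the smaller set, the latter with a limma adjusted p of 0.318 and -0.0062 after median centring, so that the opposite direction does not hold there). It was 1.11 for Hk2, a hexokinase, -0.93 for Aldoc, an aldolase, and 0.62 for Sim2, another ARNT partner. Vhl was at -0.58 and just under the fold cutoff without myc-/- replicate 2, and Sim2 was at 0.58 and under it without myc-/- + MYC siCtrl replicate 3, myc-/- siCtrl replicate 3 or myc-/- + MYC replicate 2. Of the further listed genes the difference was 1.41 for Car12, 1.31 for Ddit4 and 1.25 for Ndrg2, against -1.27 for Cxcl12, -1.34 for Stc2, -0.62 for Vegfb and -3.07 for Flt1. In the larger set Car12 was at 4.98 without MYC, 4.68 with it and a near-constant 4.67 with siAHR-2 and siAHR-5. Values this close to a constant may not show a larger fall there. In the smaller set Ndrg2 was at a near-constant 4.91 without MYC (SD 0.00114, n = 3), so its rise there may not be shown in full. Aldoc was low in the larger set, at 5.21 without MYC and 5.24 with it, against 5.90 and 6.86 in the smaller set. Whether values this low can show a fold change was not tested. The siRNA label changes with MYC oppositely in the sets and the sets have separate scales, so effects of these on the differences above cannot be told apart from a difference in the response to MYC.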

How the results depend on the processing

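Depth is unknown, and 3 libraries a group limit the precision. With an adjusted p of at most 0.05 and no fold cutoff, the number of the 9 genes called went to 7 for MYC in the larger set, 6 for siAHR-2, 7 for siAHR-5, 6 for siAHR-5 against siAHR-2 and 9 for the difference of the MYC effects. When each library was left out in turn, 6, 4, 0, 1 and 0 genes passed in the comparisons in the order of the report, and 2 to 3 for the difference of the MYC effects, where Vegfa (0.55 to 0.60) passed without myc-/- replicate 2, myc-/- + MYC siCtrl replicate 3, myc-/- siCtrl replicate 3 or myc-/- + MYC replicate 2. Median centring turned the sign of values near 0: Pdk1 (-0.029) and Vhl (-0.0062) with MYC in the smaller set, Hif1a (-0.036) and Epas1 (-0.019) with siAHR-5, and Vegfa (-0.018) between the siRNAs. Leaving out a library turned Arnt (-0.034 to 0.015) and Epas1 (-0.018 to 0.080) with siAHR-5, Vegfa between the siRNAs (-0.012 to 0.044) and the difference in MYC effect of Arnt (-0.058 to 0.14). Arnt with MYC in the larger set also missed the p cutoff without each myc-/- + MYC siCtrl library. The cause was not tested. Of 809 values of single members under the alternatives, 765 kept their direction and side of the cutoffs, 35 newly passed, 2 no longer passed and 7 turned.

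Same-numbered libraries did not consistently deviate together (mean correlation -0.0287 to 0.0974, single pairs -0.256 to 0.242). The labels do not say whether the numbers pair cultures, and the main fits assumed no pairing. With the replicate number as a block, 6, 4, 0, 1, 0 and 2 of the 9 genes passed, as without it, while calls over all genes went from 62 to 0 with siAHR-2 (Ahr adjusted p = 0.0126) and from 306 to 270 with siAHR-5.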

Other observations

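Paralogues of the members, which are counted among the further listed hypoxia targets above, did not all move with them. Beside Ndrg1, which rose in both sets, Ndrg2 rose with MYC by 0.61 in the smaller set and by 1.86 in the larger set. The smaller-set rise of Ndrg2 was measured from a near-constant 4.91 without MYC. Ndrg3 had log2FC of -0.92 and 0.59, the latter 0.58 and under the fold cutoff without myc-/- replicate 1 or myc-/- + MYC siCtrl replicate 2. Ndrg4 rose by 0.97 in the smaller set and had a log2FC of -0.44 in the larger set (limma adjusted p = 0.00797), without overlap and under the fold cutoff. Beside Pdk1, the pyruvate dehydrogenase kinases Pdk2 (0.93) and Pdk4 (0.59) rose in the smaller set and Pdk3 fell by 0.63 in the larger set. Of the VEGF genes, Vegfb fell in both sets and Vegfc fell by 1.04 in the larger set. Ndrg2 and Pdk4 in the smaller set were under the fold cutoff after median centring (0.57 and 0.55), and without myc-/- + MYC replicate 1 (0.56 and 0.53), Pdk4 also without myc-/- siCtrl replicate 1 (0.54), as was Pdk3 in the larger set after quantile normalization (-0.55). These genes were named after their values were seen.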
